A study of Bos taurus with 16 samples.

Results

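The genes that drive cell division were followed through early pregnancy in the bovine corpus luteum, the ovarian gland that secretes progesterone once the egg has been released. They were 45 named genes, taken as the rows of the deposited table of 27233 genes whose symbol matched, and each of the 45 was found on exactly 1 row. Of these, 28 act in mitosis and 17 act in or at the entry to S phase, when DNA is copied. The rule used gene names and functions and no measured value, but the genes were chosen with earlier results of these data known.

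The samples were whole corpora lutea from 16 cows (Bos taurus), each pregnant, with 4 animals taken on each of day 14, day 17, day 20 and day 23 after breeding. All animals had been mated naturally at oestrus and then inseminated, and only those found to be pregnant were kept. No group of non-pregnant animals was analysed here, so day 14 served as the reference and time after breeding is the only difference between the groups that the labels give. No source used here gives age or breed. Each library came from 1 animal, so p-values measure the spread between animals.

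A dividing cell first copies its DNA and then pulls the copies apart. Genes for the copying machinery are switched on at the border of G1 and S phase, largely by E2F factors, while genes for the mitotic machinery peak later, in G2 and M phase, and are held silent in resting cells. Several copying proteins, among them PCNA and the RRM1 subunit, also serve DNA repair and are made outside S phase. In the growing corpus luteum the cells that divide most are known to be endothelial cells of its dense capillary bed, while steroid-making luteal cells have largely left the cell cycle.

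Levels are given as RPKM, reads scaled to gene length and to the library total, and libraries held 28.7 to 44.6 M reads recovered from those values. Steroid genes of the luteal cell were at high level: HSD3B1, which makes progesterone, was at 4826 ± 461 RPKM on day 14 and 5832 ± 1021 on day 23 (mean ± SD, n = 4 animals here and throughout). Genes were tested with limma on log2(RPKM + 1) if they reached 1 RPKM in at least 4 of 16 libraries, which left 13361 genes and 40 of the 45 division genes. CENPA, CENPE, TTK and NDC80 among the mitotic genes and CDC6 among the S phase genes did not reach that level. Summaries over all 45 genes therefore come from the same fit without that filter, over 21090 detected genes. The smallest value behind any member, TTK in day 23 replicate 2, rested on 7 reads, and RRM1 never had fewer than 1660.

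Levels of the division genes were low on every day. The means over 16 libraries ran from 0.352 RPKM for TTK to 18.9 for RRM1, and the highest mitotic gene was TPX2 at 5.97. The 4 highest members were S phase genes: RRM1, MCM7 at 17.4, PCNA at 16.1 and TYMS at 12.9 RPKM. Only 19 members reached 1 RPKM in every library.

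The lowest day for the mitotic genes was day 23. The mean of all 28 mitotic genes was lowest then, as was that of 14 of 17 S phase genes, against 34.3% of the tested genes. The exceptions were MCM7 and RRM1, lowest on day 20, and TYMS, lowest on day 17. The highest mean stood on day 14 for 24 mitotic genes and on day 17 for CCNB2, PLK1, TTK and MKI67; 28.3% of tested genes had their highest mean on day 14 and 31.8% on day 17. Among S phase genes the highest mean was on day 14 for 6, on day 17 for 8 and on day 20 for 3 (20.0% of tested genes). In whole tissue, fewer dividing cells and less of these transcripts per cell cannot be told apart.

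**Figure D1:**
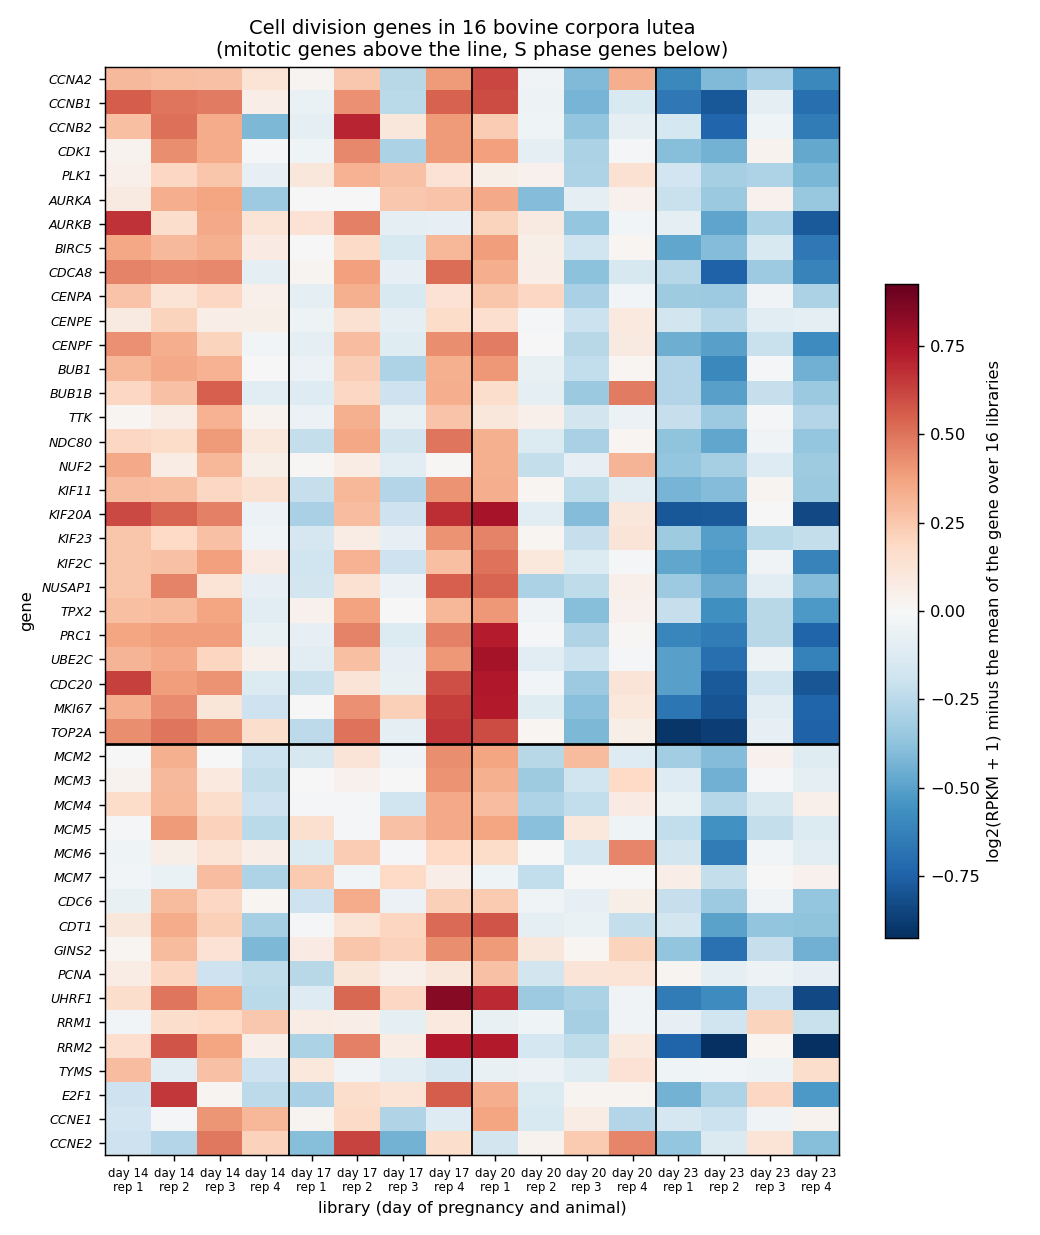
Heat map of the 45 cell division genes (rows) in 16 libraries (columns, grouped by day of pregnancy); colour is log2(RPKM + 1) minus the gene's own mean over the 16 libraries. Mitotic genes above the line are blue in most day 23 libraries, day 23 replicate 3 is paler than the other day 23 libraries, and the rows of PCNA, MCM7, RRM1 and TYMS near the bottom show little colour on any day.

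No division gene passed the test. At an adjusted p of 0.05 the limma fit called 0 members on day 23 against day 14, where the share of tested genes called was 0.0%, and 0 in each of the other day comparisons and in the F test over the 4 days, where that share was 0.0% as well. The smallest adjusted p of a member was 0.0880 for BIRC5, on day 23 against day 14. At an unadjusted p under 0.05, 23 of the 24 tested mitotic genes were lower on day 23 than on day 14 and none was higher, against 8.26% of tested genes lower and 4.31% higher. Among the 16 tested S phase genes 6 were lower at that p and none higher. Over all tested genes 1103 were lower and 576 higher at that p in the deposited scaling; the split was 832 lower and 834 higher with median-ratio scaling and 949 lower and 745 higher with quantile normalization. With median-ratio scaling and with quantile normalization alike, the members lower were 23 mitotic and 4 S phase genes, in place of 23 and 6. Without the filter the counts were 27 of 28 mitotic and 7 of 17 S phase genes, against 6.65% of detected genes. In the F test 20 of the 24 and 4 of the 16 had an unadjusted p under 0.05, against 11.7% of tested genes. A model on the recovered reads (limma voom) gave 23 of 24 and 6 of 16, against 8.0%.

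All 45 fold changes between day 14 and day 23 were negative, but those of MCM7 and PCNA turned positive with median-ratio scaling, with quantile normalization and without some single libraries, and that of TYMS without some single libraries. They had a median of -0.59 log2 over the 28 mitotic genes and -0.25 over the 17 S phase genes. Over the tested genes of the whole table the median was -0.026, and 7580 of 13361 were negative. The count of S phase genes at an unadjusted p under 0.05 was 2 in place of 6 when day 14 replicate 2 was left out, and 3 when either day 14 replicate 3 or day 23 replicate 2 was. Over all tested genes the counts lower in these fits were 1181, 814 and 899, in place of 1103.

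**Figure D2:**
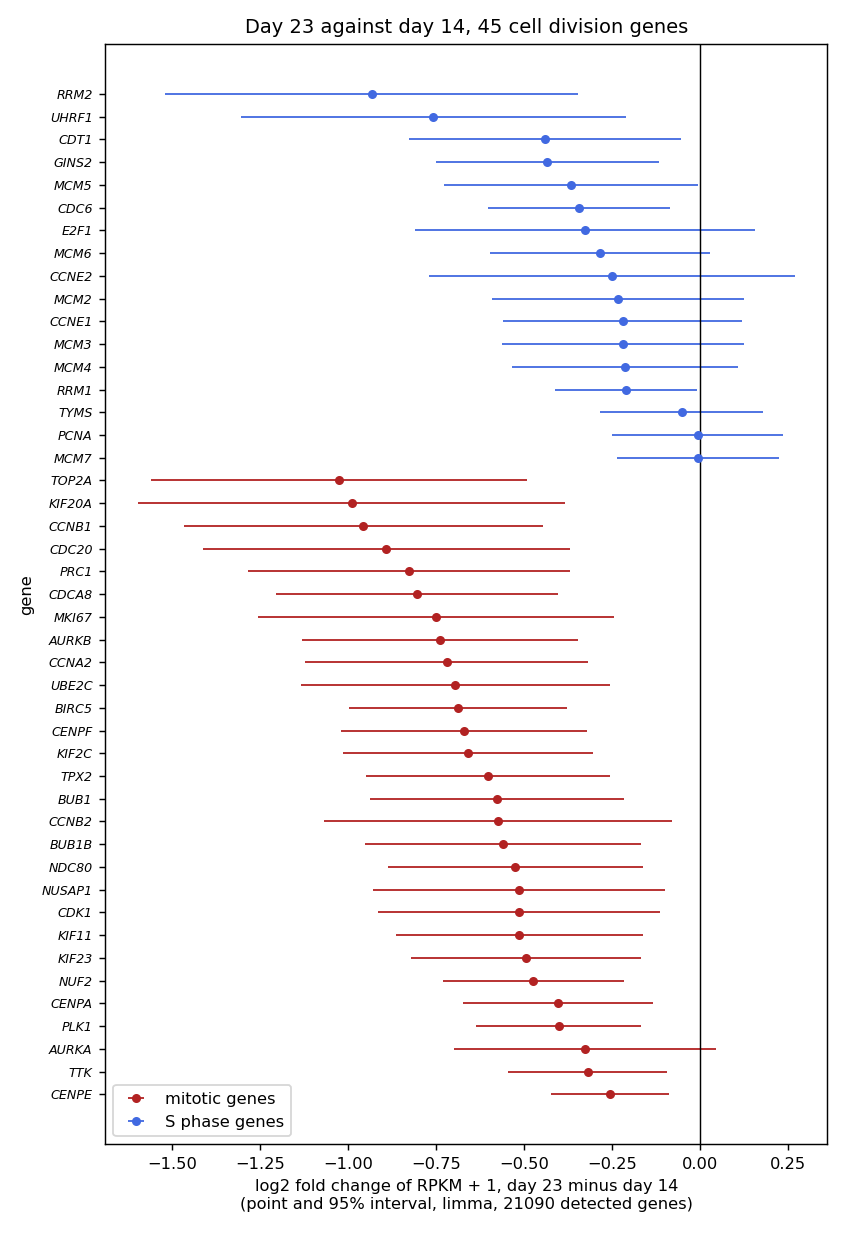
Log2 fold change of RPKM + 1 on day 23 against day 14 for each of the 45 genes (points, with 95% confidence intervals from the limma fit over 21090 detected genes; S phase genes blue, mitotic genes red, vertical line at no difference). The mitotic points run from -1.03 to -0.26, and 3 S phase points, TYMS, PCNA and MCM7, sit next to the line.

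Kinases and cyclins of mitosis come first. CCNB1 encodes cyclin B1, the partner that switches on CDK1 to start mitosis. It measured 3.09, 2.90, 2.86 and 1.89 RPKM on day 14, 1.66, 2.73, 1.33 and 3.06 on day 17, then 3.22, 1.68, 1.05 and 1.51 on day 20 and 0.749, 0.606, 1.60 and 0.709 on day 23. All 4 day 23 libraries lay below all 4 day 14 libraries, although day 17 and day 20 each overlapped day 14. The day 14 mean was 2.93 times the day 23 mean, with a log2 fold change of -0.96 ± 0.23 (SE) and an adjusted p of 0.117 from limma. CDK1, the kinase itself, stood at 0.830, 1.42, 1.27 and 0.773 RPKM on day 14, 0.744, 1.44, 0.466 and 1.35 on day 17, then 1.34, 0.684, 0.466 and 0.779 on day 20 and 0.362, 0.322, 0.839 and 0.293 on day 23. Here the groups overlapped, because day 23 replicate 3 was above the lowest day 14 library, and the log2 fold change was -0.51 ± 0.19 (SE) (limma adjusted p 0.283).

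CCNA2, cyclin A2, acts in S phase and again up to early mitosis. It was at 1.65, 1.61, 1.59 and 1.35 RPKM on day 14, 1.19, 1.55, 0.800 and 1.82 on day 17, then 2.29, 1.10, 0.623 and 1.72 on day 20 and 0.419, 0.621, 0.747 and 0.425 on day 23. The 4 day 14 libraries were close together, the 4 day 23 libraries were all below them, and day 20 spread from inside the day 23 range to above all of day 14. PLK1, a kinase that builds the spindle poles and helps cells enter and leave mitosis, read 4.09, 4.62, 4.90 and 3.67 RPKM on day 14, 4.29, 5.17, 4.95 and 4.40 on day 17, then 4.11, 4.07, 3.05 and 4.44 on day 20 and 3.37, 2.98, 3.05 and 2.67 on day 23. It was highest on day 17 and lowest on day 23, with no overlap between day 23 and either day 14 or day 17, but the gap was small: the day 14 mean was 1.43 times that of day 23. Its F test over the 4 days had an unadjusted p of 0.00173 and an adjusted p of 0.212 (limma). AURKA, a kinase of the spindle poles, was the only tested mitotic gene whose day 23 level did not reach an unadjusted p of 0.05, at 1.45 ± 0.513 RPKM on day 14 and 0.929 ± 0.252 on day 23 (p 0.0843). CCNB2, the second B-type cyclin, was at 1.87 ± 0.715 RPKM on day 14 and 0.917 ± 0.456 on day 23 with overlapping groups.

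The chromosomal passenger complex checks that chromosomes are correctly attached and then guides the cut between daughter cells. AURKB, its kinase, measured 4.78, 3.06, 3.63 and 2.97 RPKM on day 14, 2.99, 4.01, 2.41 and 2.45 on day 17, then 3.19, 2.84, 1.84 and 2.56 on day 20 and 2.41, 1.59, 1.96 and 1.12 on day 23. Every day 23 library was below every day 14 library, and day 14 replicate 1 was well above its own group. BIRC5 (survivin), which carries the complex to the centromere, read 3.83, 3.65, 3.72 and 2.97 RPKM on day 14, 2.75, 3.27, 2.41 and 3.65 on day 17, then 3.93, 2.92, 2.31 and 2.82 on day 20 and 1.70, 1.85, 2.41 and 1.38 on day 23. It had the smallest p of all members, both on day 23 against day 14 and in the F test. The day 14 and day 23 groups did not overlap, the log2 fold change was -0.69 ± 0.14 (SE) with an unadjusted p of 2.00e-04, and the adjusted p was 0.0880 (limma); for the F test it was 0.194. CDCA8 (borealin), another targeting subunit, was at 2.54, 2.49, 2.52 and 1.43 RPKM on day 14, 1.63, 2.35, 1.44 and 2.69 on day 17, then 2.26, 1.70, 0.981 and 1.33 on day 20 and 1.15, 0.535, 1.04 and 0.684 on day 23. Its day 14 and day 23 groups were separate too, with day 14 replicate 4 well below the rest of day 14, and the log2 fold change was -0.80 ± 0.19 (SE) (limma adjusted p 0.108).

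Kinetochore and checkpoint genes tie chromosomes to microtubules and delay the split until all are attached. CENPF, a large protein of the outer kinetochore, stood at 1.66, 1.51, 1.29 and 0.951 RPKM on day 14, 0.865, 1.42, 0.833 and 1.67 on day 17, then 1.76, 0.976, 0.665 and 1.10 on day 20 and 0.449, 0.402, 0.717 and 0.330 on day 23. The day 23 libraries were all below the day 14 libraries, and the day 14 mean was 2.85 times the day 23 mean. NUF2, a subunit of the NDC80 complex that grips microtubules, measured 1.44, 1.01, 1.37 and 0.989 RPKM on day 14, 0.925, 1.01, 0.783 and 0.932 on day 17, then 1.40, 0.644, 0.815 and 1.38 on day 20 and 0.494, 0.549, 0.762 and 0.521 on day 23. It was lower on day 23 than on day 14 in every library, and it showed little spread on day 17. The other 6 genes of the group had day 14 means of 1.86 times (BUB1B, a checkpoint kinase relative) to 3.04 times (NDC80) the day 23 mean, BUB1, a checkpoint kinase, being at 2.10 times. In all 8 the day 23 libraries lay below the day 14 libraries. CENPA, the histone that marks the centromere, CENPE, a kinetochore motor, and TTK, the kinase that starts the checkpoint, were under 1 RPKM in every library.

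Spindle motors and microtubule binders followed. The 7 genes had log2 fold changes on day 23 against day 14 from -0.99 (KIF20A, a motor of the late spindle) to -0.50 (KIF23, a motor of the central spindle). KIF20A was at 3.54 ± 0.864 RPKM on day 14 and 1.32 ± 0.726 on day 23, with day 23 replicate 3 alone above the lowest day 14 library. PRC1, which bundles the microtubules of the central spindle, was at 4.19 ± 0.745 RPKM on day 14 and 1.92 ± 0.455 on day 23 without overlap. KIF11, which pushes the spindle poles apart, KIF2C, which shortens microtubules at kinetochores, and NUSAP1 and TPX2, which build spindle microtubules, were at 2.17, 2.67, 1.94 and 1.65 times their day 23 mean on day 14, each without overlap. Both partners of the anaphase-promoting complex, the ubiquitin ligase that ends mitosis, were also separate between day 14 and day 23: its activator CDC20 was at 2.57 ± 0.738 RPKM on day 14 and 0.921 ± 0.399 on day 23, and UBE2C, the enzyme that feeds it ubiquitin, at 1.87 ± 0.264 and 0.798 ± 0.390.

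TOP2A, the topoisomerase that untangles DNA before chromosomes part, had the most negative fold change of all 45 genes. It measured 3.84, 4.08, 3.85 and 3.03 RPKM on day 14, 2.05, 4.10, 2.38 and 4.68 on day 17, then 4.47, 2.64, 1.71 and 2.74 on day 20 and 0.928, 0.969, 2.41 and 1.15 on day 23. Day 23 lay wholly below day 14, although day 23 replicate 3 was well above the other day 23 libraries and inside the ranges of day 17 and day 20. The log2 fold change was -1.03 ± 0.24 (SE) with a limma adjusted p of 0.108. MKI67 encodes Ki-67, the coat of mitotic chromosomes that is used to count cycling cells in tissue. It read 2.72, 3.005, 2.19 and 1.59 RPKM on day 14, 1.95, 2.95, 2.45 and 3.59 on day 17, then 3.90, 1.73, 1.26 and 2.16 on day 20 and 0.857, 0.694, 1.76 and 0.770 on day 23. Day 23 replicate 3 again overlapped day 14, while the other day 23 libraries were below all libraries of the earlier days. On the log2 scale the difference between day 23 and day 14 was -0.75 ± 0.23 (SE) (limma adjusted p 0.185).

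**Figure D3:**
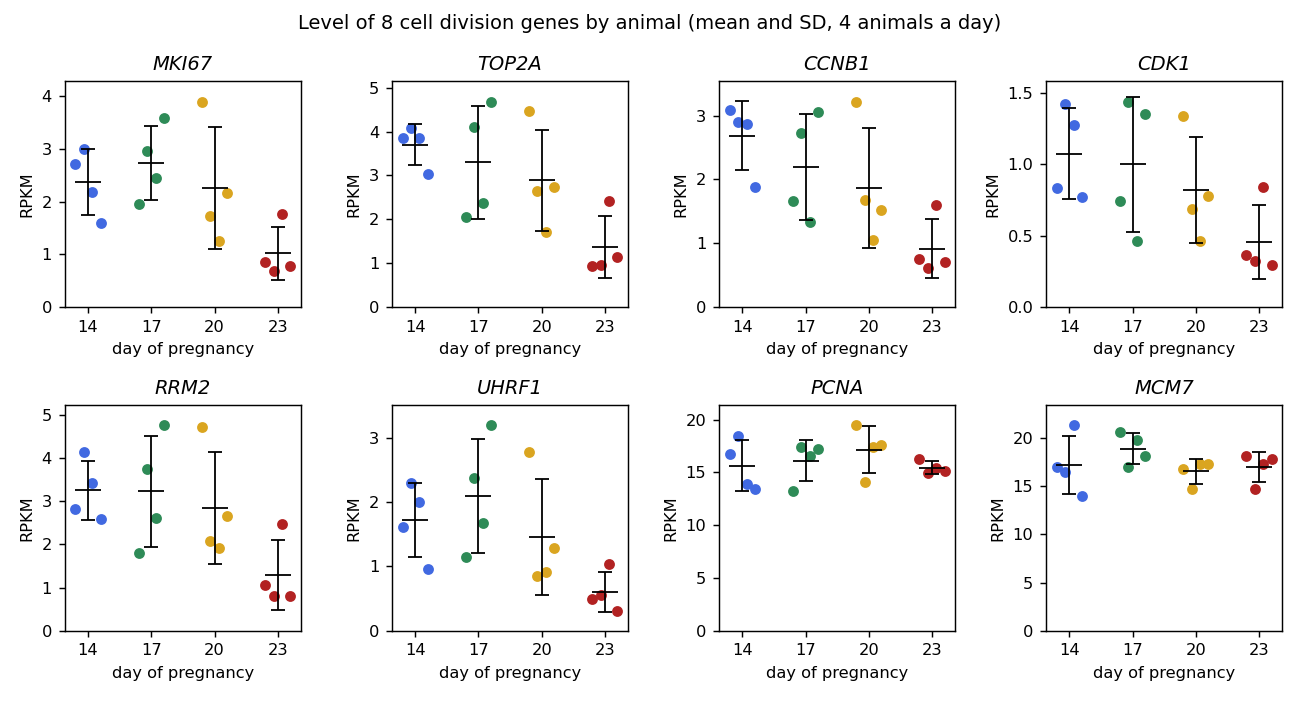
RPKM of 8 cell division genes in every animal (points) by day of pregnancy, with the mean and SD of 4 animals a day; each vertical axis starts at 0. MKI67, TOP2A, CCNB1, CDK1, RRM2 and UHRF1 have their lowest means on day 23 with replicate 3 as the highest animal of that day, while the PCNA and MCM7 points of all days overlap.

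Over the whole mitotic set, 23 of 28 genes had all 4 day 23 libraries below all 4 day 14 libraries, against 4.81% of tested and 3.77% of detected genes; the other 5 were CCNB2, CDK1, AURKA, KIF20A and MKI67. Only RRM2 did so among the 17 S phase genes. Libraries at the edges of both groups set the S phase count, which was 7 if day 14 replicate 4 was left out, 6 if day 23 replicate 3 was, 3 if day 14 replicate 1 was and 2 if day 23 replicate 1 was. The mitotic count was then 27 (day 14 replicate 4 left out) and 26 (day 23 replicate 3 left out). Leaving out a library can only keep or raise these counts. The shares above are for the full groups, and none was taken with a library left out.

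Among the S phase genes, RRM2 and UHRF1 had the most negative log2 differences on day 23 against day 14. CDC6, CDT1, GINS2, MCM5 and E2F1, at -0.44 to -0.33, also lay inside the mitotic range of -1.03 to -0.26. PCNA, MCM7 and TYMS had log2 differences near 0. RRM2, the regulated subunit of the enzyme that makes deoxynucleotides and the one that limits it to dividing cells, measured 2.83, 4.14, 3.43 and 2.60 RPKM on day 14, 1.81, 3.74, 2.60 and 4.76 on day 17, then 4.72, 2.07, 1.92 and 2.65 on day 20 and 1.06, 0.811, 2.48 and 0.817 on day 23. The day 23 group lay below the day 14 group without overlap, day 23 replicate 3 coming close to the lowest day 14 library, and the day 14 mean was 2.52 times the day 23 mean. Its partner RRM1, the large subunit, stood at 18.5, 21.2, 21.5 and 22.5 RPKM on day 14, 19.7, 19.7, 17.6 and 20.1 on day 17, then 17.8, 18.2, 15.02 and 18.3 on day 20 and 17.8, 16.4, 21.8 and 16.1 on day 23. Day 23 overlapped day 14 and the ratio of the means was 1.16. TYMS, which makes thymidylate for DNA, read 15.8, 11.8, 15.7 and 11.1 RPKM on day 14, 13.8, 12.5, 11.8 and 11.4 on day 17, then 12.2, 12.3, 11.8 and 14.1 on day 20 and 12.4, 12.5, 12.3 and 14.4 on day 23. Its groups overlapped on all days and the log2 difference between day 23 and day 14 was -0.053 ± 0.11 (SE), with a 95% interval from -0.29 to 0.18.

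UHRF1 reads hemimethylated DNA behind the fork and brings in the enzyme that restores methylation. It measured 1.62, 2.30, 2.001 and 0.966 RPKM on day 14, 1.15, 2.38, 1.67 and 3.19 on day 17, then 2.78, 0.847, 0.911 and 1.29 on day 20 and 0.494, 0.561, 1.04 and 0.308 on day 23. Day 23 replicate 3 was just above the lowest day 14 library, day 14 replicate 4, and otherwise day 23 was lower; the day 14 mean was 2.87 times that of day 23, with a log2 fold change of -0.76 ± 0.25 (SE) (limma adjusted p 0.209). PCNA, the sliding clamp that holds DNA polymerase on its template, was at 16.8, 18.5, 13.9 and 13.4 RPKM on day 14, 13.2, 17.4, 16.5 and 17.2 on day 17, then 19.5, 14.1, 17.4 and 17.6 on day 20 and 16.3, 14.9, 15.4 and 15.1 on day 23. The 4 day 23 animals lay close together and inside the day 14 range, and the log2 difference was -0.0068 ± 0.11 (SE), with a 95% interval from -0.25 to 0.24.

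The MCM2 to MCM7 proteins form the ring that unwinds DNA at the fork. MCM7 read 17.03, 16.5, 21.3 and 14.00 RPKM on day 14, 20.6, 17.01, 19.8 and 18.1 on day 17, then 16.8, 14.7, 17.3 and 17.3 on day 20 and 18.1, 14.7, 17.3 and 17.8 on day 23. Day 23 lay inside the spread of day 14, with a log2 difference of -0.0063 ± 0.11 (SE) and a 95% interval from -0.24 to 0.23. The other 5 subunits had day 14 means from 1.19 times (MCM4) to 1.37 times (MCM5) the day 23 mean, and MCM5 alone reached an unadjusted p of 0.05, at 0.0397. Subunits of the same ring thus ranged in log2 fold change from -0.37 for MCM5 to -0.0063 for MCM7, and the intervals of the 6 overlapped one another.

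Origin licensing and firing genes load that ring and start it. GINS2, part of the active helicase, measured 1.26, 1.74, 1.45 and 0.673 RPKM on day 14, 1.36, 1.67, 1.59 and 2.01 on day 17, then 1.93, 1.41, 1.26 and 1.57 on day 20 and 0.732, 0.385, 0.933 and 0.643 on day 23. Day 23 was below all libraries of day 17 and of day 20, and overlapped day 14 only through day 14 replicate 4. Its F test over the 4 days had an unadjusted p of 0.00242 and an adjusted p of 0.220 (limma). CDT1, which loads the ring, was at 1.35 ± 0.428 RPKM on day 14 and 0.710 ± 0.162 on day 23. CDC6, its partner in loading, was at 0.537 ± 0.174 RPKM on day 14 and 0.209 ± 0.127 on day 23 and stayed under 1 RPKM in every library.

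Genes of the G1 to S border overlapped between days. E2F1, a factor that switches on S phase genes, stood at 2.04, 4.47, 2.53 and 1.94 RPKM on day 14, 1.82, 2.88, 2.78 and 4.12 on day 17, then 3.38, 2.17, 2.54 and 2.54 on day 20 and 1.56, 1.85, 2.97 and 1.41 on day 23. The animals of each day spread over much of the same range. CCNE1, cyclin E1, which with CDK2 starts S phase, read 1.52, 1.82, 2.78 and 2.52 RPKM on day 14, 1.90, 2.22, 1.34 and 1.62 on day 17, then 2.66, 1.57, 1.98 and 1.36 on day 20 and 1.55, 1.48, 1.78 and 1.90 on day 23. CCNE2, the second E-type cyclin, read 1.57, 1.43, 3.11 and 2.40 RPKM on day 14, 1.23, 3.51, 1.16 and 2.28 on day 17, then 1.60, 1.99, 2.47 and 3.01 on day 20 and 1.29, 1.66, 2.20 and 1.23 on day 23. All 3 had a lower mean on day 23 than on day 14, by log2 differences of -0.33, -0.22 and -0.25, and none reached an unadjusted p of 0.05. The difference was -0.13 for E2F1 without day 14 replicate 2, and -0.13 for CCNE1 and -0.11 for CCNE2 without day 14 replicate 3.

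By role, the median log2 fold change on day 23 against day 14 over all members of a role was -0.89 for the 2 genes of chromosome structure, -0.79 for the 2 partners of the anaphase-promoting complex, -0.74 for the 3 passenger genes, -0.60 for the 7 motors and binders, -0.54 for the 6 kinases and cyclins and -0.50 for the 8 kinetochore genes. For S phase it was -0.43 for the 3 licensing genes, -0.38 for PCNA and UHRF1 together, -0.25 for the 3 entry genes, -0.23 for the 6 helicase subunits and -0.21 for the 3 nucleotide enzymes. The pseudocount of 1 pulls the fold changes of the lowest genes, such as the kinetochore genes, towards 0.

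Averaged per library, the mitotic genes were lower relative to the S phase genes on day 23. Over all 28 mitotic genes the mean of log2(RPKM + 1) was 1.58 ± 0.17, 1.47 ± 0.24, 1.39 ± 0.29 and 0.95 ± 0.19 from the earliest to the latest day. Over all 17 S phase genes it was 2.56 ± 0.16, 2.58 ± 0.17, 2.51 ± 0.18 and 2.25 ± 0.14 on the same days. Mitotic minus S phase was -0.98 ± 0.099, -1.11 ± 0.092, -1.13 ± 0.17 and -1.29 ± 0.078. The day 23 libraries, from -1.39 to -1.20, lay below the day 14 libraries, from -1.04 to -0.83. Day 17 and day 20 overlapped day 14, and day 17 replicate 3, at -1.22, and day 20 replicate 3, at -1.36, lay inside the day 23 range.

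Over the tested members alone, 24 mitotic and 16 S phase genes, the difference was -0.95 ± 0.10 on day 14 and -1.31 ± 0.094 on day 23, a shift of -0.36. It was -0.62 with a pseudocount of 0.1, which compresses the low mitotic genes less. No test was run on these averages.

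**Figure D4:**
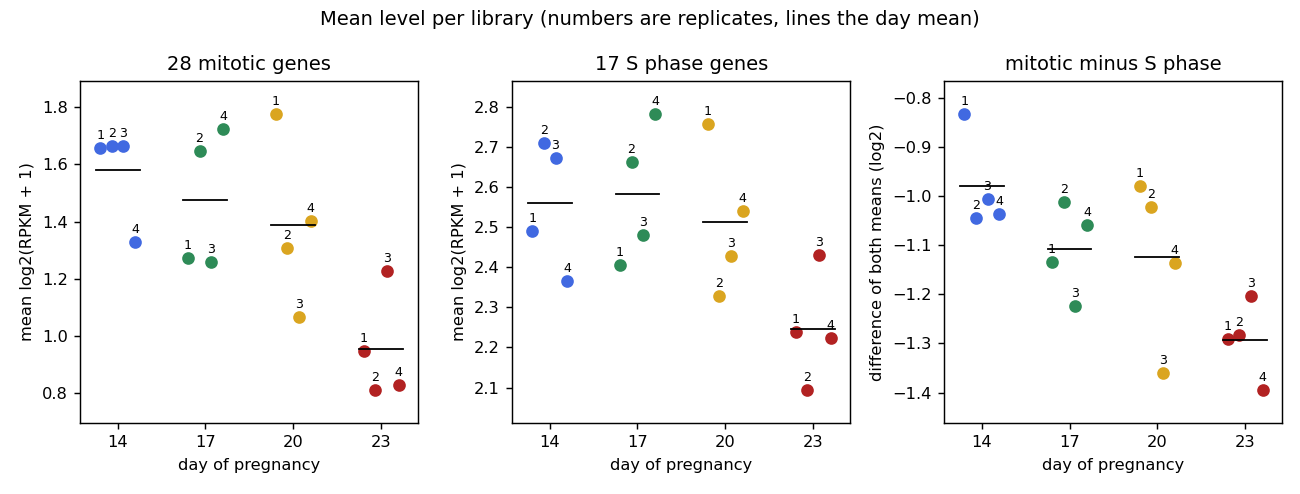
Mean of log2(RPKM + 1) in each library over the 28 mitotic genes (left), over the 17 S phase genes (middle), and the first minus the second (right), by day of pregnancy; points are animals numbered by replicate and lines are day means. The mitotic average of every day 23 library is below every day 14 library, the S phase averages of day 14 and day 23 overlap through day 14 replicate 4 and day 23 replicate 3, and the day 23 differences lie below all day 14 differences.

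PCNA and MKI67 were set against each other as a pair chosen after their values were seen. Per library, the PCNA level in RPKM divided by that of MKI67 averaged 6.77 ± 1.11, 6.06 ± 0.933, 8.79 ± 3.70 and 17.2 ± 5.74 for days 14, 17, 20 and 23. The lowest day 23 library, replicate 3 at 8.78, was above the highest day 14 library, replicate 4 at 8.44, while day 20 replicate 3 reached 13.9.

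Between day 14 and day 17 the division genes differed little. None of the 24 tested mitotic or 16 tested S phase genes was lower or higher at an unadjusted p under 0.05, where 2.65% of tested genes were lower and 4.92% higher (492 lower and 575 higher with median-ratio scaling, in place of 354 and 657). The median over all members was -0.11 log2 for mitotic and 0.043 for S phase genes. The members with the smallest p were GINS2, higher on day 17 by 0.24 ± 0.15 (SE) (limma adjusted p 0.710), and NUF2, at -0.20 ± 0.14 (SE) (adjusted p 0.721).

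On day 20 against day 14 the only member at an unadjusted p under 0.05 was RRM1, at -0.26 ± 0.097 (SE) (limma adjusted p 0.472), where 3.83% of tested genes were lower and 4.28% higher. All 4 day 20 libraries of RRM1 were below all 4 of day 14, which held for 2.88% of tested genes. AURKB came next at -0.35 ± 0.18 (SE) (adjusted p 0.655). The median was -0.17 log2 over all mitotic genes, every 1 of the 28 being negative, and -0.051 over all S phase genes. Of the 13361 tested genes 7324 were negative there, and 6875 with median-ratio scaling. Both comparisons use the same 4 day 14 libraries as day 23 against day 14.

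Day 20 against day 17 gave no member at an unadjusted p under 0.05, against 5.32% of tested genes lower and 2.84% higher (514 lower and 546 higher with median-ratio scaling, in place of 711 and 380). PLK1, at -0.22 ± 0.11 (SE), and MCM7, at -0.18 ± 0.11 (SE), had the smallest p, with limma adjusted p of 0.634 and 0.712.

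Day 23 was also below day 17 and day 20 for many mitotic genes. Against day 17, 21 of 24 tested mitotic and 5 of 16 tested S phase genes were lower at an unadjusted p under 0.05 and none higher, against 8.84% of tested genes lower and 2.85% higher (796 lower and 721 higher with median-ratio scaling, in place of 1181 and 381); without the filter it was 26 of 28 and 6 of 17, against 7.2% of detected genes. The 5 S phase genes were MCM5, CDT1, GINS2, UHRF1 and RRM2. PLK1 led at -0.51 ± 0.11 (SE), then GINS2 at -0.67 ± 0.15 (SE), both with a limma adjusted p of 0.136. Without day 17 replicate 4 the mitotic count was 13, and without day 23 replicate 3 the S phase count was 8. Over all tested genes the counts lower in these fits were 1131 and 1037, in place of 1181. All day 23 libraries lay below all day 17 libraries for 11 of 28 mitotic and 5 of 17 S phase genes, against 5.24% of tested and 3.96% of detected genes.

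Against day 20, 18 of 24 tested mitotic and 5 of 16 tested S phase genes were lower on day 23 at an unadjusted p under 0.05 and none was higher, against 4.54% of tested genes lower and 2.45% higher (514 lower and 453 higher with median-ratio scaling, in place of 607 and 328); without the filter it was 17 of 28 and 6 of 17, against 4.03% of detected genes. GINS2 at -0.61 ± 0.15 (SE) and BIRC5 at -0.49 ± 0.14 (SE) had the smallest p, with limma adjusted p of 0.498 and 0.539. The groups were separate for only KIF23 among mitotic and GINS2 among S phase genes, against 2.89% of tested and 2.4% of detected genes. Counts depended on single libraries: the mitotic count was 9 when day 20 replicate 1 was left out and 11 when day 23 replicate 4 was. The S phase count was 1 when day 20 replicate 1 was left out, 2 when day 23 replicate 2 was, and 3 when replicate 4 of either day was. Without day 20 replicate 1, 503 of all tested genes were lower, in place of 607. That number was 415 without day 20 replicate 4, 431 without day 23 replicate 2 and 515 without day 23 replicate 4.

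Animals of the same day differed, and the mitotic genes tended to order them the same way. On day 14, replicate 4 was the lowest animal for 27 of 28 mitotic genes, against 24.0% of tested genes. On day 20, replicate 1 was highest for 26 and replicate 3 lowest for 25, against 28.2% and 30.0% of tested genes. On day 23, replicate 3 was highest for 22, against 21.9% of tested genes. On day 17, replicate 4 was highest for 19 and replicate 2 for the other 9, against 30.5% and 26.2% of tested genes.

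Fewer S phase genes shared the order of the animals. Day 14 replicate 4 was lowest for 12 of 17, day 20 replicate 1 highest for 12 and day 23 replicate 3 highest for 10. The median SD within a day, on the log2 scale, was 0.26 for mitotic genes, 0.22 for S phase genes and 0.18 over all tested genes. Day 20 replicate 3 had a mitotic average of 1.07, below day 23 replicate 3 at 1.23, so single animals of day 20 and day 23 overlapped even though the day means differed.

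Further genes of the cell cycle were read from lists that hold no member. Of 53 other mitotic genes found, 51 had a negative fold change on day 23 against day 14 and the median was -0.39 log2; of the 40 tested, 25 were lower at an unadjusted p under 0.05, none was higher and none passed at the adjusted threshold, where 8.26% of all tested genes were lower and 4.31% higher. CKS2, a small subunit that binds CDK1, was at 9.32 ± 2.10 RPKM on day 14 and 5.14 ± 1.05 on day 23 (limma adjusted p 0.106), and KIF4A, a motor on chromosome arms, at 1.03 ± 0.227 and 0.354 ± 0.112 (adjusted p 0.0940). The most abundant, KPNA2, a nuclear import receptor, and CKS1B, a relative of CKS2, were at 34.8 ± 8.55 and 13.8 ± 0.714 RPKM on day 14 and at 24.9 ± 12.1 and 11.7 ± 0.959 on day 23.

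Of 47 other replication genes found, 37 were negative, with a median of -0.16, and 8 of the 39 tested were lower and 1 higher at an unadjusted p under 0.05, against the same 8.26% and 4.31%. DUT, which clears dUTP, was at 17.8 ± 2.92 RPKM on day 14 and 13.1 ± 0.848 on day 23 and TK1, thymidine kinase, at 5.98 ± 0.903 and 4.34 ± 0.595. RPA3 and RFC2, a subunit each of the single-strand binder and of the clamp loader, were the most abundant, at 37.2 ± 4.10 and 22.96 ± 1.55 RPKM on day 14 and 31.8 ± 4.52 and 23.9 ± 3.19 on day 23. None of the 39 passed at the adjusted threshold.

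Genes that act before S phase were read as well. The 23 G1 cyclins, kinases, pocket proteins and E2F factors had a median of -0.077 log2, and 17 were negative; 5 of 20 tested were lower at an unadjusted p under 0.05 and none higher, against 8.26% and 4.31% of tested genes. MYC, a growth factor-induced regulator, was at 18.04 ± 3.69 RPKM on day 14 and 10.8 ± 1.97 on day 23 and E2F4, an E2F factor of resting cells, at 31.4 ± 4.76 and 23.9 ± 1.30. CCND3, cyclin D3, was the most abundant, at 168 ± 10.8 RPKM on day 14 and 164 ± 43.2 on day 23, and CDK4, its kinase, was at 33.1 ± 3.29 and 31.3 ± 2.15.

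The 14 inhibitors and anti-proliferative genes found were spread around 0 on day 23 against day 14, with 6 negative, 8 positive and a median of 0.015. The only 1 lower there at an unadjusted p under 0.05, against 8.26% of tested genes, was CDKN3, a phosphatase of CDK1 and CDK2. It was at 1.23 ± 0.261 RPKM on day 14 and 0.566 ± 0.106 on day 23. At that p, 4 of the 14 were higher on day 20 against day 14, against 4.28% of tested genes. On day 23 against day 20, 5 were lower, against 4.54%. BTG2, which slows entry into S phase, had its highest mean on day 20, at 90.99 ± 50.1 RPKM against 34.7 ± 22.2 on day 14 and 26.9 ± 4.48 on day 23, and GADD45G, a stress-induced gene, was at 6.64 ± 1.92 against 3.40 ± 1.12 and 2.96 ± 1.29; their adjusted p in the F test were 0.212 and 0.232 (limma). CDKN1C, a kinase inhibitor, and GADD45B were the most abundant, at 94.1 ± 48.5 and 73.7 ± 14.3 RPKM on day 14 and 85.6 ± 39.4 and 99.8 ± 39.6 on day 23.

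Markers of other cell types were read beside the division genes. All 13 endothelial markers had a lower mean on the log2 scale on day 23 than on day 14, with a median of -0.35; 4 were lower at an unadjusted p under 0.05, against 8.26% of tested genes, and none passed at the adjusted threshold. Their summed level was 543 to 825 RPKM on day 14 and 501 to 561 on day 23. KDR, a VEGF receptor of endothelial cells, was at 96.5 ± 18.7 RPKM on day 14 and 66.2 ± 5.71 on day 23, and EGFL7 at 121 ± 47.4 and 90.1 ± 15.8. The part of endothelial cells in the lower mitotic levels was not tested.

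The 7 luteal cell markers summed to 19737 to 21899.5 RPKM on day 14 and 18543 to 22749 on day 23, and CYP11A1, which starts steroid synthesis, was at 4424 ± 476 and 4047 ± 289. T cell markers summed to 14.6 to 25.4 and 15.3 to 36.5, natural killer and cytotoxic markers to 5.85 to 16.5 and 11.5 to 14.8, and B and plasma cell markers to 3.31 to 22.9 and 3.15 to 8.58 RPKM. For macrophages the sums were 183 to 277 and 203 to 332 RPKM, with 360.1 to 520.1 on day 20. Fibroblast markers summed to 3494 to 6009 and 2421 to 6766, pericyte and smooth muscle markers to 367 to 641 and 353 to 693, granulosa and follicle markers to 79.8 to 98.1 and 59.03 to 113 and red blood cell markers to 1.54 to 2.28 and 1.03 to 1.86 RPKM. The summed levels of day 14 and day 23 overlapped in each of these lists and in the endothelial list, and no marker was at 0 in all libraries. All 12 T cell markers had a positive fold change, with a median of 0.29 log2, and 1 of the 10 tested was higher at an unadjusted p under 0.05, against 4.31% of tested genes. Of the B and plasma cell markers 6 of 7 were negative, with a median of -0.45, and of the granulosa and follicle markers 5 of 6, with a median of -0.25. Only 1 of the 7 B and plasma cell markers passed the filter on low values, and it was positive, at 0.039. The 7 luteal cell markers were split, with 3 negative and 4 positive, from -1.72 to 0.61 log2. At an unadjusted p under 0.05 (limma) 1 of them was lower and 1 higher, against 8.26% and 4.31% of tested genes. The part of these cell types was not tested.

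The authors' deposited table holds an adjusted p per gene for a comparison its headers do not name. By the authors' deposited table, an adjusted p under 0.05 was held by 11 of 28 mitotic genes (39.3%) and 2 of 17 S phase genes (11.8%), against 3.33% of the 15806 rows with a value. These values were made with another test, and no source used here says what they compare.

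Some members share their place in the genome with another gene. CCNA2, PLK1, KIF20A, KIF23, NUSAP1, CDT1, UHRF1, TYMS and CCNE2 overlap a protein-coding gene in the RefSeq annotation of a later bovine assembly, ARS-UCD2.0, and CDK1 and RRM1 overlap a pseudogene. CCNB2, CENPF, BUB1B and TTK overlap a long non-coding RNA gene, and PRC1 and MCM7 genes of small RNAs. The library kit keeps strand, but no source used here says whether reads were counted by strand, so the levels of all these genes are uncertain to that extent.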

How the data were processed

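RNA was sequenced from 16 whole corpora lutea. Per the labels' protocols, libraries were made with a stranded mRNA kit from RNA of high quality. Per the submitters' processing notes, the build was ARS-UCD1.2 and the tools included HISAT2 2.1.0 and, without settings, featureCounts 1.5.3, bedtools 2.26.0, FastQC and DESeq2. The authors deposited RPKM per gene and library, with p-value columns (raw and adjusted) whose comparison the file headers do not name. RPKM holds no scaling beyond the library total, so a few abundant genes can shift all others.

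RPKM values were whole multiples of 1 step per library, and the reads behind all 27233 rows were recovered as whole numbers within 0.001 of a read. Depth was 28.7 to 44.6 M reads.

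Samples were grouped by the labelled day. The RPKM values were analysed as log2(RPKM + 1) in R 4.3.3 by the linear models of limma 3.58.1, with eBayes moderation along an intensity trend, in 1 model over 16 libraries with 12 residual degrees of freedom. Genes with RPKM of at least 1 in at least 4 libraries entered. P-values are two-sided and adjusted by Benjamini-Hochberg over all 13361 genes at a threshold of 0.05; an unadjusted p under 0.05 is used to describe genes and counts, and no gene is called on it. Intervals are 95%. A fold of means is a ratio of mean RPKM, while log2 fold changes carry the pseudocount and understate low genes. Alternatives covered the pseudocount, filter, scaling, weights, voom on recovered reads, the replicate number as a block, fits of only the 8 libraries compared, and leaving out each library.

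The 45 genes and the other lists were chosen with earlier results of these data known. Values in every library are given for 16 members named with the design, for the 3 with the smallest F test p, and for the 2 with the smallest p in each day comparison; other lists are named by the smallest F test p and the highest level. AURKA, RRM1 and the PCNA to MKI67 pair, where singled out, and CDKN3 were named after their values were seen. Gene names came from the table. Sequences and coordinates were not used here.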

Additional observations from a re-analysis of the deposited data

Results flagged for a closer look

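In 17 of 180 groups of 4 animals (45 genes on 4 days) the highest or lowest animal stood apart from the rest of its day by Dixon's criterion at 95%. Chance alone does this in about 1 in 20 such groups, and genes of the same library are not independent.

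In 8 of the 17 it was day 23 replicate 3, the highest of its day. There CCNB1 was at 1.60 RPKM, CDK1 at 0.839, CENPA at 0.468, KIF11 at 0.913, KIF20A at 2.41, MKI67 at 1.76, TOP2A at 2.41 and RRM2 at 2.48 RPKM. The other day 23 animals reached at most 0.749 for CCNB1, 0.984 for KIF20A and 1.15 for TOP2A.

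In 3 it was day 14 replicate 4, the lowest of its day, with CDCA8 at 1.43, BUB1 at 1.22 and PRC1 at 3.07 RPKM. Day 20 replicate 1 was highest for UBE2C, at 3.17, and for CDT1, at 2.264 RPKM. The remaining 4 were TTK in day 14 replicate 3, at 0.676, MCM3 in day 17 replicate 4, at 8.86, and TYMS in day 23 replicate 4, at 14.4 RPKM, each the highest of its day, and RRM1 in day 20 replicate 3, at 15.02 RPKM, the lowest. Without day 23 replicate 3 and without day 14 replicate 4, 24 of 24 tested mitotic genes were lower on day 23 against day 14 at an unadjusted p under 0.05. Over all 13361 tested genes 1045 and 834 were lower in these fits, against 1103 with all libraries. Each animal lay on the side of the other group in its flagged genes, so leaving it out widens the gap there.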

How the results depend on the processing

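No member passed the adjusted threshold in any test run on it under the 27 alternatives. The 5 members under the low filter entered only the fit without it, the filter on a mean RPKM of 5 dropped others, and fits of only 8 libraries had no F test. Over all tested genes, day 23 against day 14 gave 0 calls in the reported fit, 1 by voom, 2 without the low filter, with a mean RPKM filter of 5 or with the replicate block, 4 with array weights, 13 from only the 8 libraries compared and up to 22 when a library was left out (day 17 replicate 3). Day 20 against day 14 gave 1 with a pseudocount of 0.1, 20 from only 8 libraries and up to 32, again without day 17 replicate 3, and the F test gave up to 22.

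At an unadjusted p under 0.05, a filter on a mean RPKM of 5, which keeps only TPX2 of the mitotic genes, left 1 mitotic gene lower on day 23 against each of day 14, day 17 and day 20, and 2, 1 and 1 S phase genes. Of the 9349 genes under that filter, 798, 865 and 392 were lower. For day 23 against day 20 the S phase count was 3 with the replicate block and 3 from only 8 libraries, against 5. Over all tested genes the counts lower were 622 and 743, against 607. The mean mitotic minus S phase shift on day 23 was -0.62 with a pseudocount of 0.1, against -0.36.

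Leaving out 1 library at a time gave 20 to 24 mitotic genes for day 23 against day 14, 13 to 23 against day 17 and 9 to 20 against day 20, and 2 to 6, 5 to 8 and 1 to 7 S phase genes. Over all 13361 tested genes the same fits gave 814 to 1237, 808 to 1359 and 415 to 756 lower at an unadjusted p under 0.05. Groups that did not overlap between day 23 and day 14 numbered 23 to 27 mitotic and 1 to 7 S phase genes. Leaving out a library can only keep or raise such a count, so these lower ends were fixed by the full groups. Day 23 was the lowest day for 28 mitotic genes each time and for 12 to 15 S phase genes. The counts of groups without overlap and of lowest days were added after the data were seen. The shift ran from -0.39 to -0.30 on day 23, -0.17 to -0.086 on day 17 and -0.21 to -0.069 on day 20.

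The sign turned for 3 genes with a difference near 0 on day 23 against day 14. MCM7 was at 0.028 with median-ratio scaling, 0.0069 with quantile normalization, 0.096 without day 14 replicate 3 and 0.057 without day 23 replicate 2, with a range over libraries left out of -0.095 to 0.096. PCNA was at 0.027 and 0.010 under those scalings and at 0.029, 0.072, 0.0079 and 0.0032 without day 14 replicates 1 and 2 and day 23 replicates 2 and 4, in a range of -0.072 to 0.072. TYMS was at 0.020 and 0.017 without day 14 replicates 1 and 3, in a range of -0.14 to 0.020. The cause was not tested.

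No pairing of the animals by replicate number was seen. Over 24 pairs with the same number the correlation of deviations ran from -0.23 to 0.21, and 5 were over 0.1. Over 72 pairs with different numbers it ran from -0.26 to 0.21, and 18 were over 0.1. Of 16 libraries, 3 correlated best with their own number. Such correlations could miss an effect on few genes. With the replicate block, 23 of the 24 tested mitotic genes were lower at an unadjusted p under 0.05 on day 23 against day 14. The count was 17 against day 17 and 17 against day 20. Over all 13361 tested genes the block gave 1109, 1184 and 622 lower, in the same order. Counts for low genes rest on few reads, such as 7 for TTK.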
